A study of Mus musculus with 3 samples.

Results

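The 37 genes described here are interferon-stimulated antiviral genes, taken by symbol from the 55450 genes counted in single cells of the mouse testis. All 37 were present once in the gene list, and their counts were summed over the cells of each marker-defined class in each library, germ, Sertoli, endothelial and immune cells included. The study used mice with azoospermia brought about by busulfan, an alkylating agent toxic to germ cells that divide, and every animal in all 3 groups had received that drug. The PBS group was injected with phosphate-buffered saline, the EXO group with exosomes, vesicles that cells release, taken from blood of wild-type mice, and the dEXO group with blood exosomes from mice whose intestinal microbiota was out of balance. Strain, age, dose, time after injection and the number of animals behind each library are not given in the sources used here. There was 1 library per group, so a difference between groups cannot be told apart from a difference between these 3 libraries, and no test was possible. Intervals are 95% intervals and cover counting error alone.

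Interferons are secreted when a cell senses viral or other misplaced nucleic acid. Type I interferons bind the receptor IFNAR1-IFNAR2, and the kinases JAK1 and TYK2 then activate a complex that holds STAT2 and IRF9 and binds interferon-stimulated response elements in promoters. The genes so induced encode sensors, transcription factors and effectors that block viral entry, translation and replication, and interferon gamma and lambda induce an overlapping set. In the testis, Leydig, Sertoli and interstitial immune cells are known to mount this response, while germ cells are known as poor responders.

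After filtering, 5267 PBS, 9860 EXO and 9119 dEXO cells were used, with medians of 8398, 3256.5 and 3104 UMIs (unique molecular identifiers, 1 per captured RNA molecule). The members held 193097 UMIs in PBS, 143815 in EXO and 121048 in dEXO. Levels are CPM, the UMIs of a gene divided by all UMIs of that library and class and scaled to 1000000. Clusters were made without the members and without 54 other interferon pathway genes. The labelled tissue is testis, while the wording of the extraction protocol is about aorta. Leydig, Sertoli and germ cell markers were abundant, at 42810 to 50546 CPM in all for 8 Leydig markers in the Leydig-like class. Endothelial- or pericyte-like cells numbered 39 in the 3 libraries together and enter no comparison. Between 15 and 17 barcodes were shared by each pair of libraries. The doublet caller marked 4, 2 and 0 cells where loading would give 4.41%, 8.18% and 7.81%, so it did not work and doublets remained among the cells used.

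Many interferon-stimulated genes carry response elements close to their starts, so the promoters of members on which the results turn are shown first. RefSeq promoters of build GRCm38.p6, from 250 bases before to 50 after a start, were at hand for 27 of the 37 members. No entry was matched for Dhx58, Zbp1, Oas2, Usp18, Parp9, Parp14, Mx1, Mx2, Rtp4 and Ifi27. A pair of GAAA half-sites with 2 free bases between them, searched on both strands with overlapping matches counted, was found in 14 of the 27 members (51.9%) and in 1079 of 27025 genes with a promoter (3.99%). By windows of equal length the shares were 45.2% of 31 member windows and 3.44% of 32851. A match is a run of letters and does not show that a factor binds there. The 22 matches in members lay at a median of 76.5 bases before the start, and 7 members had 2 or more, overlapping ones included. The longer form, in which CT follows the second half-site, was found in 7 of the 27 members (25.9%) and in 0.303% of genes. Of the other pathway genes, 14 of 47 with a promoter held the shorter form and 0 held the longer one. The 250 bases before the start follow for 5 members, with matches to the paired GAAA half-sites on either strand in capitals (TTTC on the printed strand where the match is on the other). Ifit1 (chr19:34640639-34640888, plus strand) and Ifit3 (chr19:34583279-34583528, plus strand) had 2 matches each. Isg15 (chr4:156200819-156201068, minus strand) had 3 that overlap in 1 run. Rsad2 (chr12:26456453-26456702, minus strand) and Ifitm2 (chr7:140955962-140956211, minus strand) had 1 each.
Ifit1: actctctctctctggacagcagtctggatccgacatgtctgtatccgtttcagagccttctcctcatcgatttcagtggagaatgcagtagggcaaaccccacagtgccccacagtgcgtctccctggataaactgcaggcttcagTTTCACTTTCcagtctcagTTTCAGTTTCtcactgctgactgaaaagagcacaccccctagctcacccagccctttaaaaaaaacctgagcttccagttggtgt
Ifit3: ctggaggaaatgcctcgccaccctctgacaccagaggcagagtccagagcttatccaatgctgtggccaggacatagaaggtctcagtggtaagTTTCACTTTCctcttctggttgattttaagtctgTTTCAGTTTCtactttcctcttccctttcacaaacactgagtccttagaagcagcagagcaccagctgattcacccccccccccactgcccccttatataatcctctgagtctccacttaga
Isg15: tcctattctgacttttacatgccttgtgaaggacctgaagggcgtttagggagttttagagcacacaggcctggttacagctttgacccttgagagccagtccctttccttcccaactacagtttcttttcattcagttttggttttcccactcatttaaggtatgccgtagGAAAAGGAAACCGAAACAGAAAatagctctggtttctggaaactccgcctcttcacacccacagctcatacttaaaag
Rsad2: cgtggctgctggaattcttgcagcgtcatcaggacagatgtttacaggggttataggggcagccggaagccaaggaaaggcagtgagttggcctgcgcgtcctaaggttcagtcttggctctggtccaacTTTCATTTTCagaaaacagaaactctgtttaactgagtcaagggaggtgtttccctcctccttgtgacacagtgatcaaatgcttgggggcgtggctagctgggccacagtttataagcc
Ifitm2: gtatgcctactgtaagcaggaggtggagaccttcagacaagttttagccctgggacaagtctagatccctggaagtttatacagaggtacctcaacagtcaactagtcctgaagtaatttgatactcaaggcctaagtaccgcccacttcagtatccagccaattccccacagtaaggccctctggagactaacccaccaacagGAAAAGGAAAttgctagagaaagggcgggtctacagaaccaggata
The first 4 are promoters of genes that stood higher in dEXO than in PBS in at least 1 somatic class below. Of these, Ifit1 and Isg15 stood lower in dEXO in T- or NK-like cells (log2 ratios -1.13 and -0.53). A relation between matches and direction was not tested. Ifitm2, with a match 46 bases before its start, stood lower in dEXO as a sum over Leydig-like, stromal-like and T- or NK-like cells. Among the 13 members that had a promoter and no match were Irf7, Irf9, Ifit2, Oasl2, Cmpk2, Xaf1 and Isg20.

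Among the classes with enough cells to compare, which leave out endothelial- or pericyte-like cells, the members were mostly highest in macrophage-like cells. Over the 8 classes with at least 50 cells in every library, 20 of 37 members had their highest mean level in macrophages, while 5.45% of 23518 genes did. A further 6 were highest in T- or NK-like cells and 6 in stromal-like cells, which resemble fibroblasts. Leydig-like cells, which make testosterone, held the highest level of 2 members (6.51% of genes). Sertoli-like cells (11.8% of genes), late spermatocytes (15.3%) and spermatids (18.9%) held that of 1 member each. Where ranges are said below to overlap or not, they are the libraries' ranges in the highest class and in the next class.

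**Figure D1:**
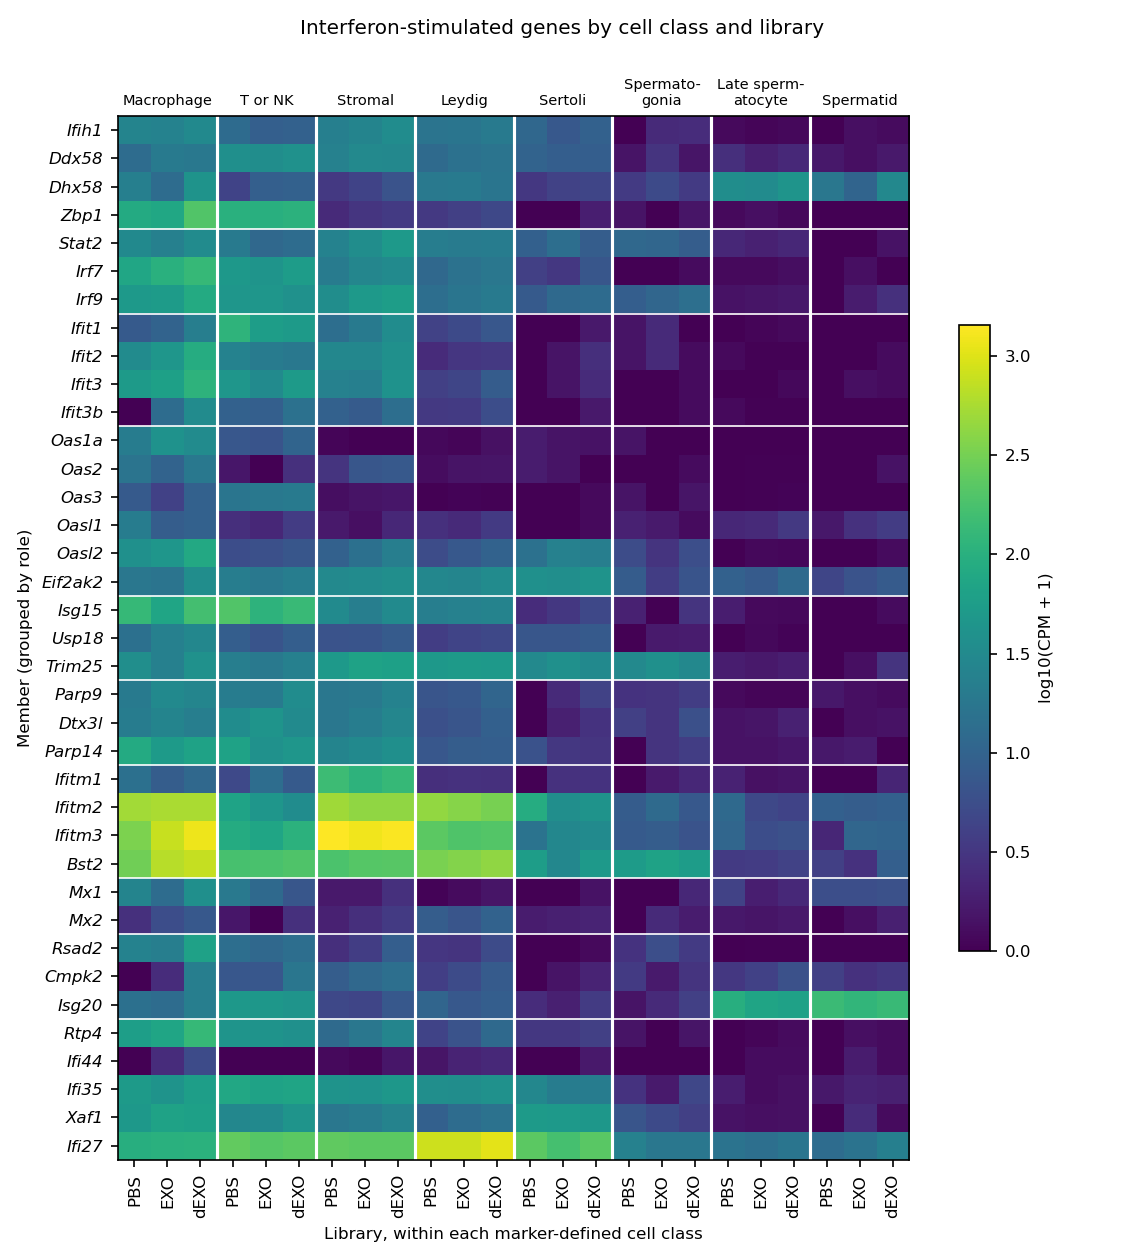
Each row is a member and each column a library within a cell class; colour gives log10(CPM + 1). Macrophages hold the highest level of 20 of the 37 rows, and Isg20 stands out in late germ cells. Dhx58 is highest in late spermatocytes, with a range over the libraries that overlaps that of macrophages.

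The sensors recognise foreign nucleic acid. Ifih1 (MDA5) and Ddx58 (RIG-I) bind viral RNA, Dhx58 (LGP2) modulates both, and Zbp1 binds Z-form nucleic acid. Zbp1 was confined mainly to immune cells, at 83.5 CPM in PBS, 74.8 in EXO and 197 in dEXO in macrophages and 99.2, 95.99 and 106 CPM in T- or NK-like cells, against 1.37, 2.10 and 2.48 CPM in stromal-like cells. Ddx58 was highest in T- or NK-like cells (36.6, 34.1 and 39.01 CPM). Ifih1 was close to equal in stromal-like cells (22.02, 25.5 and 33.8 CPM) and macrophages (25.6, 24.4 and 30.3 CPM), whose ranges overlapped. Dhx58 was highest in late spermatocytes, described with the germ cells below. Its range there (32.3 to 41.6 CPM) overlapped that of macrophages (12.2 to 41.2 CPM).

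The transcription factors carry the signal into the nucleus, with Stat2 and Irf9 as parts of the complex named above and Irf7 as the factor that amplifies interferon production. Irf7 was at 73.3 CPM in PBS, 101 in EXO and 128 in dEXO in macrophages, above T- or NK-like cells at 47.9, 42.1 and 54.6 CPM. Irf9 stood at 49.4, 53.5 and 84.5 CPM in macrophages and 34.2, 48.8 and 55.99 CPM in stromal-like cells, and Stat2 at 23.9, 34.8 and 49.3 CPM in stromal-like cells. Each was lower in Leydig-like cells, where Irf7 was at 10.6, 14.3 and 16.8 CPM.

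The effectors divided by class. The IFIT proteins bind foreign RNA and block its translation. Ifit2 and Ifit3 were highest in macrophages, at 32.4, 44.3 and 88.8 CPM and 51.1, 61.1 and 110.5 CPM. Ifit1 was highest in T- or NK-like cells, at 112 CPM in PBS, 55.7 in EXO and 51.1 in dEXO, against 12.7, 18.4 and 33.1 CPM in stromal-like cells, with no overlap. Ifit3b, nearly identical to Ifit3 and therefore uncertain in its counts, reached 32.5 CPM in dEXO macrophages and 0 UMIs in PBS. Active enzymes of the OAS family make the messenger that activates RNase L, though not every protein of the family does. Oas1a (20.5, 39.7 and 32.5 CPM), Oas2, Oasl1 and Oasl2 (37.5, 44.3 and 80.2 CPM) were highest in macrophages, and Oas3 in T- or NK-like cells (15.8, 17.3 and 19.1 CPM). Eif2ak2 (PKR), the kinase that halts translation, was highest in Sertoli-like cells at 37.5, 35.4 and 40.5 CPM, a range that overlapped that of stromal-like cells.

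Isg15 is a ubiquitin-like modifier, Usp18 removes it and damps the receptor, and Trim25 is a ubiquitin ligase of the RIG-I pathway. Isg15 was at 197 CPM in PBS, 108 in EXO and 136 in dEXO in T- or NK-like cells and 129.6, 71.8 and 165 CPM in macrophages, with overlapping ranges. Usp18 was highest in macrophages (13.6, 22.9 and 28.2 CPM) and Trim25 in stromal-like cells (50.5, 64.6 and 61.7 CPM). Of the PARP9-DTX3L pair, which modifies histones and viral proteins, Parp9 was highest in macrophages (18.8, 30.5 and 26.0 CPM) and Dtx3l in T- or NK-like cells (33.8, 42.1 and 31.2 CPM). The genes of this pair overlap head to head on opposite strands. Parp14, an ADP-ribosyltransferase, was highest in macrophages (85.2, 51.9 and 64.99 CPM).

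The membrane restriction factors included some of the most counted members. Ifitm1, Ifitm2 and Ifitm3 block fusion of viruses with cell membranes, and Bst2 (tetherin) holds budding particles at the surface. Ifitm1 was nearly a stromal gene, at 146 CPM in PBS, 110.0 in EXO and 131 in dEXO, with 13.6, 7.64 and 10.8 CPM in macrophages. Ifitm3 was also highest there, at 1439, 1229 and 1376 CPM. Ifitm2 was at 522, 564 and 563 CPM in macrophages, 510.5, 430.1 and 426 CPM in stromal-like cells and 445, 388 and 324 CPM in Leydig-like cells. Bst2 was highest in macrophages at 297, 652 and 752 CPM, with a wide range over the libraries.

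Among the other members, the Mx GTPases trap viral nucleocapsids: Mx1 was highest in macrophages (25.6, 12.2 and 36.8 CPM) and Mx2, annotated as a polymorphic pseudogene, in Leydig-like cells (7.54, 5.71 and 8.74 CPM). Rsad2 (viperin) makes a chain-terminating nucleotide and Cmpk2, its neighbour on chromosome 12, feeds it with substrate. Rsad2 was highest in macrophages (23.9, 21.4 and 62.8 CPM) and Cmpk2 in stromal-like cells (7.59, 10.8 and 13.1 CPM), while Isg20, an exonuclease, was a gene of late germ cells. Rtp4, a chaperone of receptors, and Xaf1, a promoter of cell death, were highest in macrophages, at 57.96, 71.8 and 130.0 CPM and 47.7, 65.7 and 60.7 CPM. Ifi44 was near 0 in every class, with a highest mean of 1.95 CPM, again in macrophages. Ifi35 was highest in T- or NK-like cells (76.6, 64.4 and 68.5 CPM). Ifi27, a mitochondrial and nuclear envelope protein, was a Leydig gene at 837 CPM in PBS, 816 in EXO and 1081 in dEXO, with 245, 230.0 and 227 CPM in stromal-like cells.

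Ifitm1, Ifitm2, Ifitm3, Bst2 and Ifi27 together took 84.6% to 86.3% of member UMIs in Leydig-like cells and 76.9% to 84.3% in stromal-like cells. The other 32 members were therefore also summed alone. That sum was 1029.7, 1011 and 1714 CPM in macrophages, 1078, 848 and 963 CPM in T- or NK-like cells, 471, 555 and 713 CPM in stromal-like cells and 293, 318 and 372 CPM in Leydig-like cells, in the order PBS, EXO, dEXO here and below. It was 219, 228 and 237 CPM in Sertoli-like cells and 131, 116 and 129.7 CPM over all germ cells. The few endothelial- or pericyte-like cells, 4, 21 and 14 by library, gave 1335, 1674 and 2451 CPM, above macrophages in each library. The sum was highest in dEXO in macrophages, stromal-like and Leydig-like cells and highest in PBS in T- or NK-like cells.

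The share of cells with at least 1 UMI of these 32 members was compared with every cell thinned to 1000 UMIs. In macrophages it was 46.0% (35.98 to 56.3) in PBS, 53.3% (46.1 to 60.4) in EXO and 72.6% (64.9 to 79.4) in dEXO. Stromal-like cells gave 34.6% (32.4 to 36.9), 38.2% (36.7 to 39.8) and 43.7% (41.6 to 45.8), and Leydig-like cells 24.9% (23.04 to 26.7), 28.9% (27.1 to 30.6) and 30.96% (28.99 to 32.99). In these 3 classes the intervals of PBS and dEXO did not overlap, with dEXO higher. T- or NK-like cells gave 54.7% (49.3 to 60.1), 51.4% (46.95 to 55.7) and 49.6% (44.8 to 54.5), with intervals that overlapped. Germ cells, with the lowest summed level, served as the comparison for free RNA, although they hold Isg20, Dhx58 and other members of their own, and gave 11.2% (7.21 to 16.3), 12.3% (10.3 to 14.5) and 11.3% (9.80 to 12.9). Before thinning the medians were 4857, 2815 and 2432 UMIs in macrophages, 5024, 2579 and 2359 in stromal-like cells, 29746.5, 16168 and 13203 in Leydig-like cells and 21170, 5102 and 8211 in germ cells. Cells too shallow to be thinned were left out, among them germ cells (55 of 261 in PBS, 177 of 1130 in EXO and 341 of 2027 in dEXO), and 97, 330 and 206 stromal-like cells. Without thinning the stromal-like shares were 75.7% (73.7 to 77.6), 64.4% (62.96 to 65.9) and 67.4% (65.5 to 69.3), highest in the deepest library. The members' UMIs were unevenly spread in thinned cells: up to 32 UMIs of the 32 members lay in 1 dEXO stromal-like cell, 23 in 1 dEXO macrophage and 23 in 1 PBS T- or NK-like cell.

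**Figure D2:**
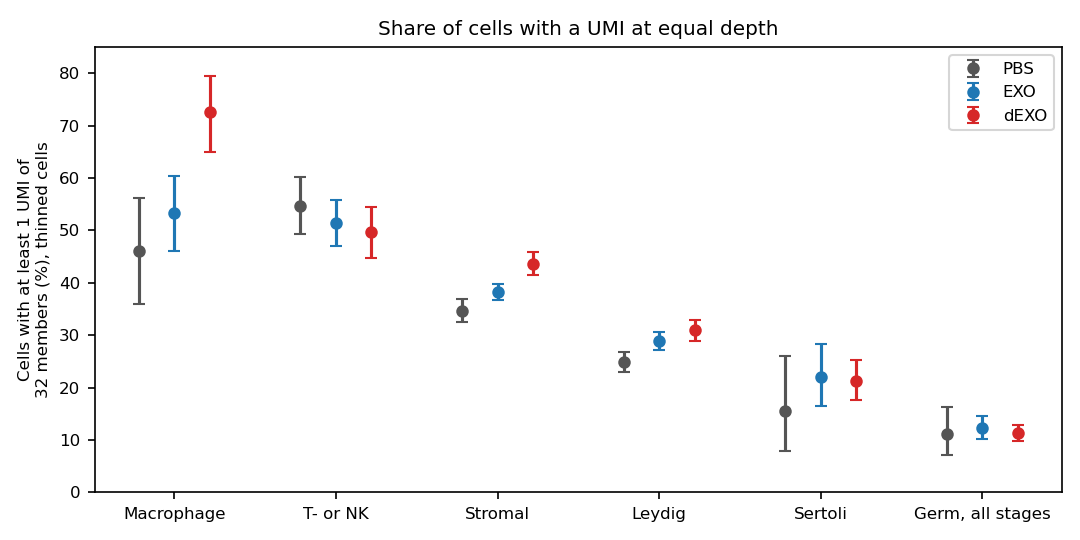
The vertical axis gives the percent of cells with at least 1 UMI of 32 members after thinning to 1000 UMIs, points are libraries within a class, and bars are 95% Clopper-Pearson intervals. Macrophages run from 46.0% in PBS to 72.6% in dEXO, while T- or NK-like and germ cells show overlapping bars.

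The dEXO library was set against the PBS library to compare exosomes from dysbiotic donors with saline. In Leydig-like, stromal-like and macrophage-like cells most measured members stood higher in dEXO. Rtp4, Ifit3, Oasl2 and Irf7 were at least 1.5-fold higher in all 3 classes, Rsad2 and Cmpk2 in Leydig-like and stromal-like cells, and in macrophages the largest ratio was that of Ifitm3. The macrophage members are named after their values were seen. Summed over Leydig-like and over stromal-like cells, Ifitm2 and Ifitm3 stood lower in dEXO, but Ifitm3 stood higher within most of their clusters. In T- or NK-like cells the members were divided, and Ifit1 and Isg15 were lower in dEXO. Log2 ratios and folds are dEXO to PBS unless another pair is named, each followed by its interval. A member was measured in a pair of libraries when it had at least 50 UMIs over both, so members low in both are missing from the counts. In Leydig-like cells 33 of 37 were measured, 28 stood higher in dEXO (60.3% of genes did) and 14 stood at least 1.5-fold higher, where 17.2% of 15074 genes did; 0 were 1.5-fold lower (5.68% of genes). The median log2 ratio of the 33 was 0.45, and that of all genes 0.08. In stromal-like cells 30 were measured, 26 stood higher (75.8% of genes) and 15 at least 1.5-fold higher (18.9% of 12518 genes), with 0 lower (1.61%). Their median was 0.58, and the median gene was itself 0.23 higher. Relative to that gene the members' median was 0.35 and the count at least 1.5-fold higher was 7 of 30 (12.8% of genes). In macrophages 15 were measured, 14 stood higher (48.1% of genes) and 9 at least 1.5-fold higher (12.3% of 2722 genes), with 0 lower by as much (9.07%) and a median of 0.80 against -0.02 for all genes. With every cell thinned to 1000 UMIs, which leaves fewer members measured, the counts 1.5-fold higher were 3 of 15 in Leydig-like cells (9.02% of genes; median 0.19), 7 of 22 in stromal-like cells (17.0% of genes) and 3 of 4 in macrophages (10.4% of genes).

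**Figure D3:**
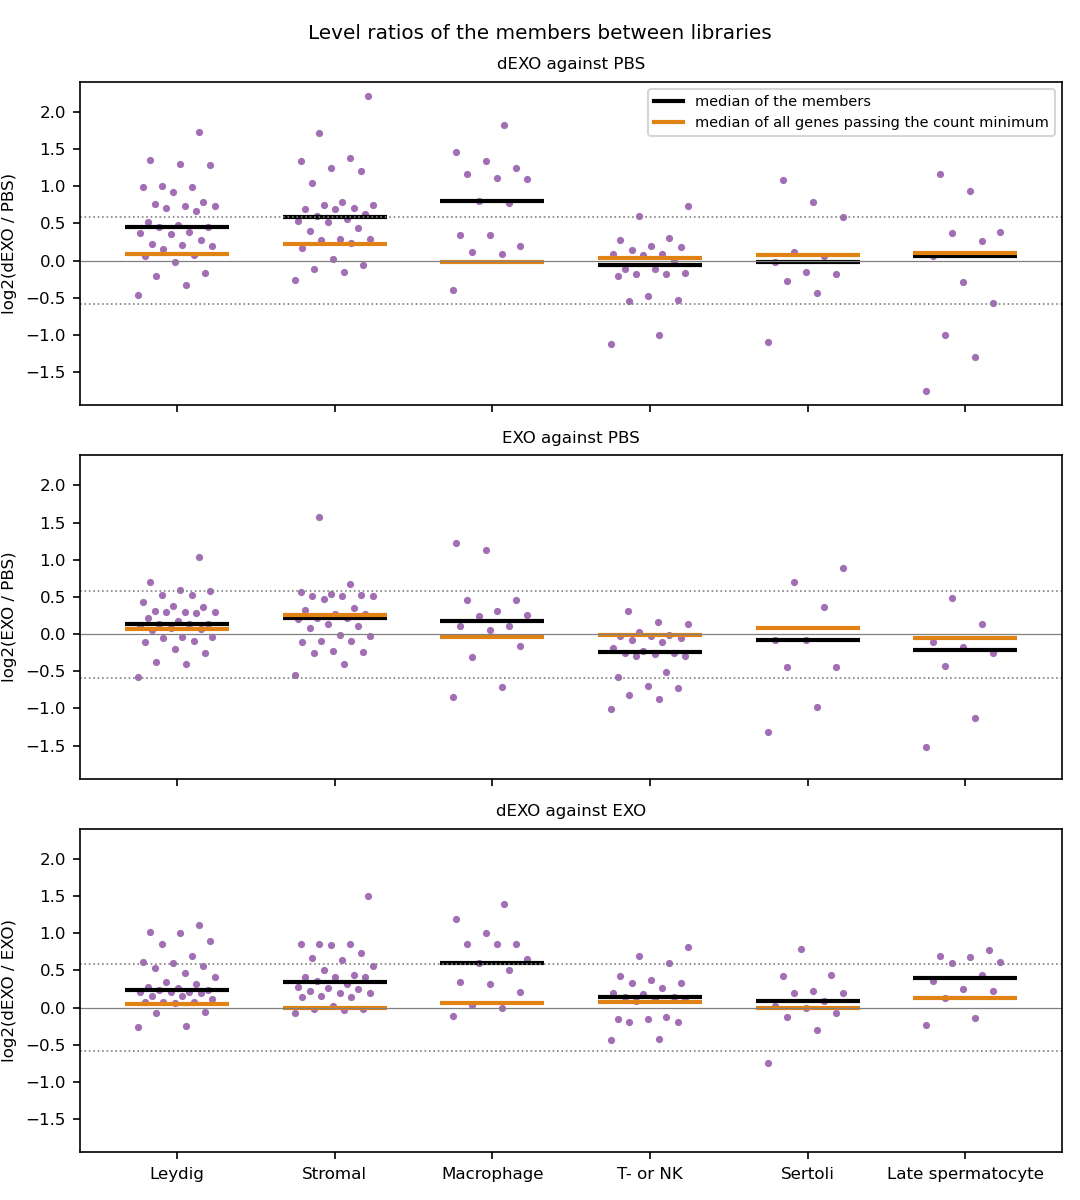
Each point is a measured member and the vertical axis is the log2 ratio of CPM between 2 libraries; black bars are medians of members, orange bars medians of all measured genes, and dotted lines mark 1.5-fold. Against PBS the dEXO medians are 0.45, 0.58 and 0.80 in Leydig-like, stromal-like and macrophage-like cells, and -0.06 in T- or NK-like cells.

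Among the transcription factors, Irf7 in Leydig-like cells was at 10.6 CPM in PBS, 14.3 in EXO and 16.8 in dEXO, which is 1.58-fold (1.41 to 1.78) higher in dEXO than in PBS. In stromal-like cells it was at 19.4 CPM in PBS, 26.9 in EXO and 31.4 in dEXO, a ratio of 1.62-fold (1.31 to 2.0). Irf7 thus stood in the same order in both classes, and also in macrophages, where the values given above make a ratio of 1.74-fold (1.16 to 2.65). Stat2 in stromal-like cells was at 23.9 CPM in PBS, 34.8 in EXO and 49.3 in dEXO, or 2.06-fold (1.72 to 2.46), and Irf9 was at 1.63-fold (1.40 to 1.91) there. In Leydig-like cells Stat2 did not differ beyond counting error, at 20.7, 19.4 and 20.4 CPM and a log2 ratio of -0.02 (-0.16 to 0.12), while Irf9 stood at a log2 ratio of 0.52 (0.37 to 0.68). Of the sensors, Dhx58 in stromal-like cells was at 2.32 CPM in PBS, 3.29 in EXO and 5.49 in dEXO on 22, 36 and 31 UMIs (log2 ratio 1.24, 0.41 to 2.10). In stromal-like cells Ifih1 was at 22.02 CPM in PBS, 25.5 in EXO and 33.8 in dEXO, and Ddx58 at 23.7, 29.7 and 29.1 CPM with an interval that reached 0 (log2 ratio 0.29, -0.01 to 0.59). In Leydig-like cells Ddx58 stood at a log2 ratio of 0.45 (0.28 to 0.62) and Ifih1 at a log2 ratio of 0.28 (0.13 to 0.43), and Dhx58 was lower in dEXO at 18.1, 18.8 and 15.8 CPM, -0.20 (-0.36 to -0.05). Zbp1 in macrophages, at 83.5 CPM in PBS, 74.8 in EXO and 197 in dEXO, was 2.36-fold (1.65 to 3.41) higher in dEXO. The 16 T- or NK-like markers in macrophages summed to 193, 77.9 and 260.0 CPM, with 5, 4 and 2 of them at 0, in the same order as Zbp1 and as macrophage Isg15. Their part was not tested.

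All 4 IFIT genes stood at least 1.5-fold higher in dEXO Leydig-like cells, with a median log2 ratio of 0.95. Ifit3 was at 2.94 CPM in PBS, 3.62 in EXO and 7.23 in dEXO, so that dEXO stood apart from both other libraries (2.46-fold, 2.02 to 3.0). Ifit1 was at 3.24 CPM in PBS, 4.18 in EXO and 6.13 in dEXO, or 1.89-fold (1.54 to 2.31). These are low levels, resting on 195, 155 and 216 UMIs of Ifit3 and 215, 179 and 183 of Ifit1. In stromal-like cells Ifit1 was at 12.7 CPM in PBS, 18.4 in EXO and 33.1 in dEXO, a ratio of 2.60-fold (2.06 to 3.29), with PBS lowest and dEXO highest. Ifit3 was at 23.5 CPM in PBS, 21.8 in EXO and 39.3 in dEXO there, with PBS and EXO alike and dEXO above them (1.67-fold, 1.38 to 2.02). Ifit2 differed less in stromal-like cells, at 28.1, 27.98 and 37.9 CPM. In macrophages Ifit2 was at 32.4 CPM in PBS, 44.3 in EXO and 88.8 in dEXO on 19, 29 and 41 UMIs, and Ifit3 at 51.1, 61.1 and 110.5 CPM. Both were higher in dEXO, by 2.74-fold (1.56 to 5.0) and 2.16-fold (1.35 to 3.51). Ifit1, Ifit2, Ifit3 and Ifit3b lie close together on chromosome 19, Ifit1 at 34640871 to 34650009 and Ifit3 at 34583531 to 34588731 of GRCm38, both on the plus strand. The Ifit1 and Ifit3 promoters printed above each hold a pair of separate matches.

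Of the OAS family, Oasl2 differed in each of the 3 classes. It was at 4.39 CPM in PBS, 6.32 in EXO and 8.74 in dEXO in Leydig-like cells (1.99-fold, 1.68 to 2.36), at 8.53, 13.6 and 21.6 CPM in stromal-like cells (2.53-fold, 1.90 to 3.40) and at 37.5, 44.3 and 80.2 CPM in macrophages (2.14-fold, 1.23 to 3.80). PBS was lowest and dEXO highest in every one of them. Oas2 in stromal-like cells was at 2.0 CPM in PBS, 5.94 in EXO and 6.56 in dEXO on 19, 65 and 37 UMIs, so that both exosome libraries stood above PBS. Its log2 ratio was 1.71 (0.88 to 2.59) for dEXO and 1.57 (0.81 to 2.39) for EXO, against the same PBS library. Oas2 overlaps Gm43068 on the other strand. Eif2ak2 differed little, at a log2 ratio of 0.22 (0.11 to 0.33) in Leydig-like and 0.27 (0.00 to 0.54) in stromal-like cells. Oas1a and Oas3 had too few UMIs in both classes to be measured.

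Rsad2 had the largest ratio of the measured members in stromal-like cells. It was at 1.69 CPM in PBS, 2.74 in EXO and 7.80 in dEXO on 16, 30 and 44 UMIs, or 4.62-fold (2.56 to 8.78) higher in dEXO than in PBS. The clusters of this class differed: from PBS to dEXO it ran from 0.438 to 15.8 CPM in c0 and from 7.09 to 2.81 in c5. It ran from 1.11 to 3.99 CPM in c3, 0.928 to 2.76 in c6 and 0 to 4.79 in c13. In Leydig-like cells it was at 2.14 CPM in PBS, 1.98 in EXO and 4.29 in dEXO, where PBS and EXO were alike and dEXO stood 2.0-fold (1.56 to 2.56) above PBS. In macrophages, at 23.9, 21.4 and 62.8 CPM, it had under 50 UMIs over PBS and dEXO, so no ratio is given. Cmpk2 was at 2.88 CPM in PBS, 4.34 in EXO and 7.03 in dEXO in Leydig-like cells (2.44-fold, 2.0 to 2.99) and 7.59, 10.8 and 13.1 CPM in stromal-like cells (1.73-fold, 1.23 to 2.42). Rsad2 spans chromosome 12, 26442746 to 26456452, minus strand, and Cmpk2 chromosome 12, 26469204 to 26479837, plus strand, in GRCm38. As a sum over Leydig-like cells Isg20 was lower in dEXO, at 9.66, 6.51 and 7.67 CPM (log2 ratio -0.33, -0.56 to -0.11). Within Leydig-like clusters it ran from 4.80 CPM in PBS to 7.83 in dEXO in c2 and from 7.85 to 9.10 in c4. It ran from 10.8 to 5.63 CPM in c1 and from 7.06 to 3.05 in c20. In stromal-like cells Isg20 was higher in dEXO, at 3.79, 3.57 and 6.38 CPM (log2 ratio 0.75, 0.04 to 1.46). Dhx58 and Isg20 are also germ cell transcripts, and summed spermatid markers in stromal-like cells were at 136, 247 and 432 CPM. Their part in the stromal-like values was not tested.

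Rtp4 had the largest ratio of the 33 measured members in Leydig-like cells. It was at 3.35 CPM in PBS, 5.46 in EXO and 11.05 in dEXO (3.30-fold, 2.78 to 3.93), with each library apart from the next. Stromal-like cells gave 11.4, 16.8 and 26.2 CPM (2.30-fold, 1.79 to 2.98) and macrophages 57.96, 71.8 and 130.0 CPM (2.24-fold, 1.45 to 3.52). The order PBS, EXO, dEXO was the same in the 3 classes. The Rtp4 gene (chromosome 16, 23520291 to 23614222, plus strand) overlaps Masp1 on the other strand and Gm45338. Xaf1 was at 8.28, 11.9 and 14.3 CPM in Leydig-like cells (1.73-fold, 1.52 to 1.96), and Ifi44 on few UMIs (34, 45 and 39) at 2.55-fold (1.57 to 4.16). Parp9 and Dtx3l stood together in Leydig-like cells, at 1.66-fold (1.43 to 1.94) and 1.69-fold (1.43 to 2.01).

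Summed over Leydig-like and over stromal-like cells, the ISG15 system differed between dEXO and PBS by less than 1.5-fold, and it differed by more within some clusters. Isg15 in Leydig-like cells was at 21.5 CPM in PBS, 23.6 in EXO and 24.7 in dEXO, a log2 ratio of 0.20 (0.07 to 0.33), and in stromal-like cells at 31.2 CPM in PBS, 21.3 in EXO and 31.5 in dEXO, 0.02 (-0.26 to 0.29). As sums over stromal-like cells PBS and dEXO were thus alike and EXO lower. Usp18 was at 2.79, 3.43 and 3.82 CPM in Leydig-like cells (log2 ratio 0.45, 0.10 to 0.80) and 5.37, 5.67 and 7.09 CPM in stromal-like cells (log2 ratio 0.40, -0.24 to 1.03). Trim25 did not differ beyond counting error in Leydig-like cells (log2 ratio 0.07, -0.02 to 0.16) and was higher in dEXO in stromal-like cells, at 50.5, 64.6 and 61.7 CPM (log2 ratio 0.29, 0.09 to 0.49). Within clusters Isg15 ran from 17.0 CPM in PBS to 34.8 in dEXO in Leydig-like c4 and from 13.6 to 26.6 in stromal-like c0, but from 29.9 to 16.9 in stromal-like c5. Usp18 ran from 4.91 to 11.98 CPM in stromal-like c3 and from 9.45 to 4.68 in c5. As sums, 0 of 3 members of this system were 1.5-fold higher in either class. The Isg15 promoter printed above holds 3 overlapping matches.

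The membrane restriction factors did not share 1 direction. In Leydig-like cells Ifitm2 was at 445 CPM in PBS, 388 in EXO and 324 in dEXO, highest in PBS and lowest in dEXO (log2 ratio -0.46, -0.49 to -0.42). In stromal-like cells it was at 510.5 CPM in PBS, 430.1 in EXO and 426 in dEXO, again highest in PBS (log2 ratio -0.26, -0.33 to -0.19). Ifitm3 was at 230.0 CPM in PBS, 194 in EXO and 204 in dEXO in Leydig-like cells, where its log2 ratio of -0.17 became 0.01 with each library clustered alone, and at 1439, 1229 and 1376 CPM in stromal-like cells (log2 ratio -0.06, -0.10 to -0.02). Ifitm1 in stromal-like cells was at 146, 110.0 and 131 CPM (log2 ratio -0.16, -0.29 to -0.03). Bst2 was higher in dEXO Leydig-like cells, at 333 CPM in PBS, 376 in EXO and 435 in dEXO (log2 ratio 0.38, 0.35 to 0.41). Ifi27 was also higher there (log2 ratio 0.37, 0.35 to 0.39) and lower in stromal-like cells as a sum (log2 ratio -0.11, -0.21 to -0.01). The sums of Ifitm3 and Ifi27 did not keep their direction within clusters. Ifitm3 was higher in dEXO than in PBS in 4 of 5 stromal-like clusters: it ran from 805 to 845 CPM in c0, 1754 to 2061 in c3, 1219 to 1439 in c6 and 2793 to 2871 in c13, and from 1248 to 1226 in c5. In Leydig-like cells it ran from 134 to 152 CPM in c1, 93.3 to 148 in c2 and 495 to 773 in c4, and from 441 to 332 in c20. The 2 libraries divided unevenly over c1 (1018 PBS and 83 dEXO cells) and c2 (70 and 1632). Ifi27 was lower in dEXO in stromal-like c0 (183 to 171 CPM) and higher in c3, c5, c6 and c13. Ifitm2 was lower in dEXO in Leydig-like c1, c2, c4 and c20 and in stromal-like c0, c5, c6 and c13, and higher in c3 (619 to 689 CPM). In macrophages the order was different: Ifitm3 was at 338 CPM in PBS, 787 in EXO and 1194 in dEXO (3.54-fold, 3.0 to 4.18) and Bst2 at 297 CPM in PBS, 652 in EXO and 752 in dEXO (2.53-fold, 2.11 to 3.06), while Ifitm2 differed little (log2 ratio 0.11, -0.13 to 0.35). The summed markers of other cells in macrophages moved in part with these values. The 8 Leydig markers there summed to 378, 886 and 1397 CPM and the 8 stromal markers to 846, 1595 and 1460 CPM, against over 24413 CPM in their own classes, with 1 to 2 of the 8 stromal markers and 0 of the Leydig markers at 0. Their part in the macrophage values was not tested.

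**Figure D4:**
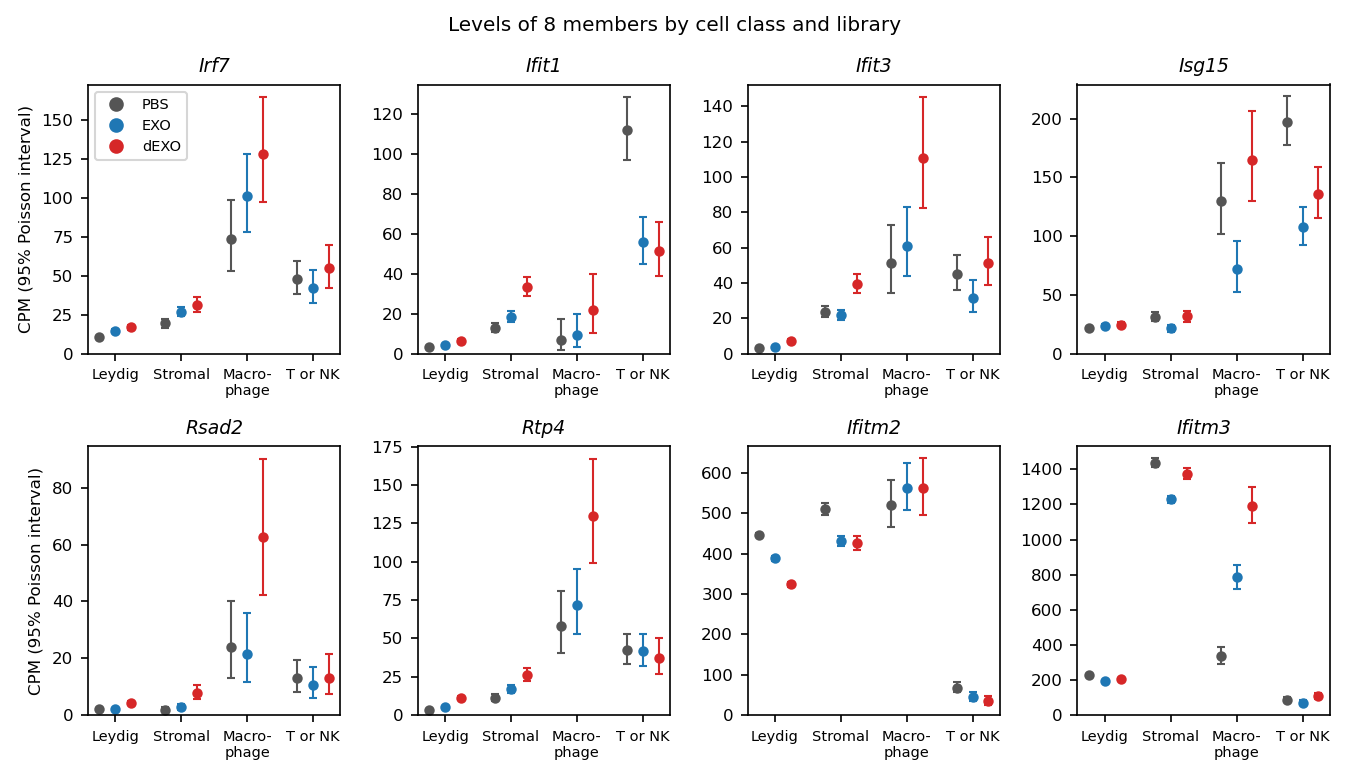
Points are CPM of 8 members in 4 cell classes for the PBS, EXO and dEXO libraries, with 95% Poisson intervals; each panel has its own linear axis from 0. Ifit1 is highest in dEXO in stromal-like cells (33.1 CPM) and in PBS in T- or NK-like cells (112 CPM), and Ifitm2 is highest in PBS in Leydig-like cells (445 CPM).

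The Leydig-like values join different clusters. The largest number of PBS cells lay in c1 (1018 of 2143), led by kallikrein genes, and most dEXO cells in c2 (1632 of 2105), led by Hsd3b1, Svs5 and Ptgds, so the class was also compared within clusters. The members' median log2 ratio of dEXO to PBS was 0.23 in c1 (83 dEXO cells), 0.58 in c2 (70 PBS cells), 0.86 in c4 (300 against 746 cells, led by Serpina3n and C3) and 0.29 in the cycling cluster c20. Cluster c16, with 254 PBS and 35 dEXO cells, was too small in dEXO to be compared. In c4, the cluster with at least 300 cells in both libraries, 20 of 30 members stood at least 1.5-fold higher, where 17.5% of all genes did. There 0 stood lower by as much (4.87% of genes). In c1 the count was 8 of 30 higher by 1.5-fold and 5 lower (13.4% and 12% of genes). Within stromal-like clusters the median was 0.45 in c0, 0.41 in c3, 0.24 in c5, 0.16 in c6 and 0.04 in the shallow c13, where 5 members were measured. In c3 8 of 23 measured members stood at least 1.5-fold higher in dEXO (11.3% of genes) and 0 lower by as much (3.71%). In c0 the counts were 11 of 24 higher (11.2%) and 0 lower (1.48%). In c5 they were 6 of 22 (10.3%) and 1 (2.29%), and in c6 4 of 19 (10.1%) and 1 (2.51%). In c13 0 of 5 stood higher by as much (10.6%) and 1 lower (13.2%). The median of all genes within these stromal-like clusters was between -0.03 and 0.12.

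In T- or NK-like cells the members gave no common direction between dEXO and PBS. The mitochondrial share of UMIs in this class was 2.48%, 0.896% and 1.35% in PBS, EXO and dEXO, in the same order as Isg15 below, and its part was not tested. Of 22 measured, 10 stood higher (53.9% of genes) and 12 lower, with 2 at least 1.5-fold higher (12.1% of 6714 genes), 2 at least 1.5-fold lower (6.52%) and a median of -0.06. Ifit1 was at 112 CPM in PBS, 55.7 in EXO and 51.1 in dEXO, so PBS was apart from both exosome libraries, which did not differ from each other beyond counting error (log2 ratio -0.12, -0.62 to 0.37). Its log2 ratio of dEXO to PBS was -1.13 (-1.57 to -0.70), and -0.61 with every cell thinned to 1000 UMIs. Isg15 was at 197 CPM in PBS, 108 in EXO and 136 in dEXO, again highest in PBS (log2 ratio -0.53, -0.82 to -0.26). Parp14 stood at 64.2, 39.02 and 44.2 CPM (log2 ratio -0.54, -1.04 to -0.05). Ifitm2 was at 67.6 CPM in PBS, 45.2 in EXO and 33.8 in dEXO (log2 ratio -1.0, -1.56 to -0.47). The 8 Leydig markers in T- or NK-like cells summed to 2545 CPM in PBS, 1375 in EXO and 1284 in dEXO, and the PBS Leydig-like cells themselves held Ifitm2 at 445 CPM and Ifit1 at 3.24 CPM. The part of such RNA in the T- or NK-like values was not tested. Parp9 was higher in dEXO, at 20.3, 19.2 and 33.8 CPM (log2 ratio 0.74, 0.05 to 1.43), and Xaf1 at 27.6, 30.96 and 41.6 CPM had an interval that reached 0 (log2 ratio 0.59, -0.01 to 1.20). Most of these cells lay in c9, where the median was -0.09 over 21 members.

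The EXO library was set against the same PBS library. In Leydig-like cells 23 of 33 measured members stood higher in EXO (59.1% of genes did), 3 of them by 1.5-fold or more (12.9% of 15139 genes) and 0 lower by as much (3.97%), with a median of 0.14 against 0.06 for all genes. Those 3 were Rtp4 (log2 ratio 0.71, 0.43 to 0.98), Ifi44 (log2 ratio 1.03, 0.36 to 1.72) and Cmpk2 (log2 ratio 0.59, 0.29 to 0.89). Ifit3 and Rsad2, high in dEXO, stood at a log2 ratio of 0.30 (-0.02 to 0.61) and -0.11 (-0.52 to 0.29) in EXO, with intervals that reached 0, and Xaf1 at a log2 ratio of 0.52 (0.35 to 0.70). As sums, Isg20 (log2 ratio -0.57, -0.78 to -0.37), Mx2 (log2 ratio -0.40, -0.63 to -0.18), Ifitm3 (log2 ratio -0.25, -0.29 to -0.21) and Ifitm2 (log2 ratio -0.20, -0.23 to -0.17) were lower in EXO. Ifitm3 was higher in EXO within c2 (93.3 to 98.6 CPM) and c4 (495 to 505 CPM), and lower within c1, c16 and c20. Mx2 was higher in EXO within c2 (5.33 to 6.13 CPM) and lower within the other clusters. The Leydig-like counts differed by cluster. In c4 10 of 30 members stood at least 1.5-fold higher (11.6% of genes) and 1 lower by as much (2.91%). In c16 6 of 24 stood at least 1.5-fold higher (7.69%). In c1, of 30 members, 0 stood at least 1.5-fold higher (8.26%) and 3 lower by as much (4.91%).

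In stromal-like cells 19 of 29 measured members stood higher in EXO than in PBS (77.7% of genes did), 2 by 1.5-fold or more (18.7% of 13181 genes) and 0 lower by as much (1.36%). The median of 0.21 lay under that of all genes (0.26), so relative to the median gene it turned to -0.05. Oas2 and Oasl2 (log2 ratio 0.67, 0.27 to 1.08) were those 2, and Irf9 (log2 ratio 0.51, 0.31 to 0.72) and Stat2 (log2 ratio 0.54, 0.30 to 0.79) followed. As sums, Isg15 was lower (log2 ratio -0.55, -0.80 to -0.30), as were Ifitm1 (log2 ratio -0.41, -0.52 to -0.29), Ifitm2 (log2 ratio -0.25, -0.31 to -0.19) and Ifitm3 (log2 ratio -0.23, -0.26 to -0.19). The sums did not keep their direction within every cluster. From PBS to EXO, Ifitm3 ran from 1754 to 1802 CPM in c3, 1248 to 1310 in c5 and 1219 to 1405 in c6. It ran from 805 to 765 in c0 and 2793 to 2246 in c13. Ifitm2 was higher in EXO in c3 and c6, Ifitm1 in c6, and both were lower in the other clusters. Isg15 was higher in c6 and c13, alike in c0 (13.6 and 13.7 CPM) and lower in c3 and c5. Cluster c3 held 804 PBS and 703 EXO cells, and c0 397 and 1559. In T- or NK-like cells 4 of 24 members stood higher in EXO (48.8% of genes did) and 20 lower, 5 of them by 1.5-fold or more (7.36% of 6966 genes) and 0 higher by as much (5.46%), with a median of -0.24. Those 5 were Ifit1 (log2 ratio -1.0, -1.38 to -0.63), Isg15 (log2 ratio -0.87, -1.14 to -0.61), Parp14 (log2 ratio -0.72, -1.19 to -0.26) and, with intervals that reached 0, Stat2 (log2 ratio -0.82, -1.76 to 0.07) and Mx1 (log2 ratio -0.69, -1.61 to 0.18). Ifitm2 stood at -0.58 on the log2 scale, which became 0.15 in cells with at least 1000 UMIs. In macrophages 14 were measured and 10 stood higher (46.1% of genes did). Ifitm3 (log2 ratio 1.22, 0.98 to 1.46) and Bst2 (log2 ratio 1.14, 0.88 to 1.40) stood at least 1.5-fold higher in EXO (7.4% of 3042 genes), and Isg15 (log2 ratio -0.85, -1.41 to -0.31) and Parp14 (log2 ratio -0.71, -1.39 to -0.06) at least 1.5-fold lower (8.35%).

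The direct comparison of the exosome libraries, dEXO against EXO, also had most members higher in dEXO in Leydig-like, stromal-like and macrophage-like cells. In Leydig-like cells 29 of 33 stood higher in dEXO (58.9% of genes did) and 8 at least 1.5-fold higher (12.1% of 14775 genes), with 0 lower by as much (3.85%) and a median of 0.24 against 0.05. In thinned cells, with 17 members measured, that median was 0.013 and the count 1 (4.73% of genes). The 8 were Rtp4, Ifit3, Ifit3b, Rsad2, Cmpk2, Oasl1, Mx2 and Parp9. Rsad2 stood at a log2 ratio of 1.11 (0.71 to 1.53) and Ifit3 at a log2 ratio of 1.0 (0.70 to 1.31). In stromal-like cells 26 of 30 stood higher (50% of genes) and 8 by 1.5-fold or more (10.9% of 13322 genes), with 0 lower (1.97%) and a median of 0.34 while all genes were at 0.00. Rsad2 (log2 ratio 1.51, 0.80 to 2.23), Ifit1 (log2 ratio 0.85, 0.56 to 1.14) and Ifit3 (log2 ratio 0.85, 0.58 to 1.12) led them. Macrophages gave 13 of 15 higher (55.3% of genes), 8 at least 1.5-fold (12.1% of 2904 genes) and 0 lower by as much (5.13%), with Zbp1 at a log2 ratio of 1.40 (0.88 to 1.93) and Isg15 at a log2 ratio of 1.20 (0.65 to 1.75). T- or NK-like cells gave 15 of 22 higher (57.9% of genes), with Ifit3, Parp9 and Ifitm3 at least 1.5-fold higher (13.3% of 6535 genes) and 0 lower by as much (3.34%). This comparison and the one with PBS use the same dEXO library.

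Seen as an order of libraries, 21 of 34 members in Leydig-like cells were lowest in PBS and highest in dEXO, against 34.1% of genes, and 27 of 34 were highest in dEXO, against 46.3%. These counts take members with at least 50 UMIs over the 3 libraries. The 7 exceptions were Dhx58, Stat2, Trim25, Isg20 and the 3 Ifitm genes. In stromal-like cells 19 of 31 followed that order (37.5% of genes) and 25 of 31 were highest in dEXO (44.1%), without Ddx58, Trim25, the 3 Ifitm genes and Ifi27. In macrophages 9 of 18 followed it (23.1%) and 14 were highest in dEXO (40.2%). In T- or NK-like cells 3 of 25, Oas3, Bst2 and Xaf1, followed it (24.2%), and 11 of 25 were highest in dEXO (42.7%) and 13 in PBS.

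In Sertoli-like cells, the somatic cells of the tubule, few members could be compared. Of 11 measured between dEXO and PBS, 5 stood higher (59.2% of genes did), 2 of them at least 1.5-fold higher (15.3% of 9777 genes), Irf9 and Ifitm3, and Ifitm2 lower by as much (3.62%), with a median of -0.02. Oasl2 was at 14.2 CPM in PBS, 23.2 in EXO and 21.3 in dEXO, Eif2ak2 at 37.5, 35.4 and 40.5 CPM and Xaf1 at 51.7, 49.03 and 46.6 CPM, with no order of the libraries in common. Ifitm2 was at 88.5 CPM in PBS, 35.4 in EXO and 41.3 in dEXO and Ifitm3 at 14.99, 27.7 and 31.6 CPM. The 8 Leydig markers in these cells summed to 5477, 1715 and 3235 CPM, highest in PBS as Ifitm2 was, and their part was not tested. Bst2 was at 55.5 CPM in PBS, 28.1 in EXO and 48.7 in dEXO and Ifi27 at 226, 167 and 224 CPM, both lowest in EXO.

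Most members were low in germ cells, though only 4, 1 and 0 of the 37 were at 0 over all stages in PBS, EXO and dEXO. The summed 32 members were lower over all germ cells than in any somatic class named above, and Irf7, Ifit1, Ifit2, Ifit3, Rsad2 and Zbp1 were at 4.72 CPM or less from spermatogonia to spermatids, that highest value being Rsad2 in EXO spermatogonia. Their Ifit1, for example, was at 0.486, 1.35 and 0 CPM in spermatogonia and 0, 0.110 and 0.216 CPM in late spermatocytes. Isg20 was instead high in spermatids and in part of the late spermatocytes. Dhx58 was highest in late spermatocytes, with a range that overlapped that of macrophages. Isg20 was at 0.486 CPM in PBS, 1.35 in EXO and 2.98 in dEXO in spermatogonia and 0.940, 4.37 and 2.60 CPM in early spermatocytes, then 93.7, 69.6 and 62.9 CPM in late spermatocytes and 139, 118 and 138 CPM in spermatids. As sums over classes, spermatids held the highest level, with no overlap with late spermatocytes. By sub-cluster the 2 stages were not apart. Isg20 in g4, named late spermatocyte, was at 132 CPM (127 to 138). The spermatid sub-clusters g12 and g0 were at 135 (127 to 143) and 104 CPM (83.5 to 128). Within the late spermatocyte stage Isg20 differed by sub-cluster, at 132 CPM in g4 and 67.2 in g6, the deepest ones, and 1.22 in g3 and 4.93 in g8. The sub-clusters high in Isg20 also held spermatid markers. Relative to the highest sub-cluster, late spermatocyte and spermatid markers had median levels of 0.40 and 0.38 in g4 and 0.59 and 0.25 in g6. These were 0.48 and 0.01 in g3 and 0.94 and 0.02 in g8. Dhx58 was spread in another way over these sub-clusters, at 40.7 CPM in g3 and 48.1 in g8, and 30.8 in g4. By library it was at 34.8 CPM in PBS, 32.3 in EXO and 41.6 in dEXO in late spermatocytes and 16.8, 9.43 and 28.9 CPM in spermatids, after 2.43, 4.05 and 2.48 CPM in spermatogonia. Leydig-like cells held Dhx58 at 18.1, 18.8 and 15.8 CPM, so spermatids stood above them in dEXO only. The antisense partner of Dhx58, Dhx58os, had 1 UMI over the germ stages and libraries together.

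**Figure D5:**
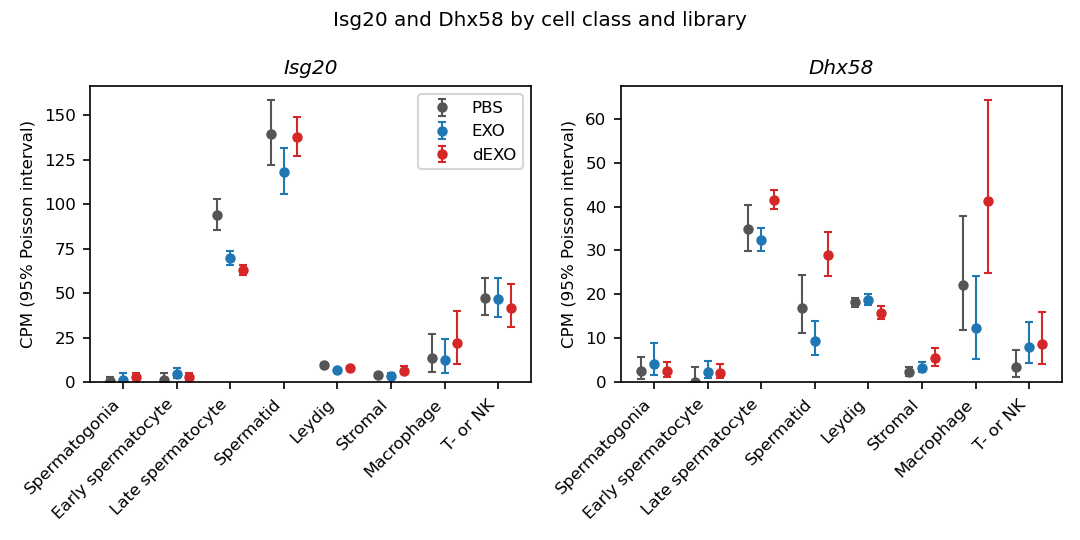
Points are CPM of Isg20 (left) and Dhx58 (right) in 8 cell classes for each library, with 95% Poisson intervals on linear axes. Isg20 reaches 139, 118 and 138 CPM in spermatids, and Dhx58 34.8, 32.3 and 41.6 CPM in late spermatocytes, in the order PBS, EXO, dEXO.

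Summed over late spermatocytes Isg20 was lower in both exosome libraries, at a log2 ratio of -0.57 (-0.72 to -0.42) for dEXO and -0.43 (-0.58 to -0.27) for EXO against the same 76 PBS cells. The libraries divided differently over the sub-clusters: in PBS 26 of the 76 cells fell in g4, high in Isg20, against 88 of 548 in EXO and 133 of 961 in dEXO, while g3, low in it, took 5, 92 and 192. Within g4 Isg20 was at 122, 121 and 144 CPM, highest in dEXO, so the order of the sums did not hold there. In g6, with 8 PBS cells, it was at 94.7, 62.9 and 67.8 CPM. The 16 spermatid markers summed to 5088, 3645 and 3085 CPM in late spermatocytes, in the same order as Isg20, with 0 of them at 0, and their part was not tested. Dhx58 stood at a log2 ratio of 0.26 (0.03 to 0.49) for dEXO against PBS and 0.36 (0.22 to 0.51) for dEXO against EXO. Eif2ak2 was at 8.55 CPM in PBS, 7.17 in EXO and 11.02 in dEXO, and Cmpk2 at 2.24, 3.12 and 5.0 CPM, both highest in dEXO. Ifitm2 and Ifitm3 were lower too, at 10.99, 3.83 and 3.27 CPM and 10.2, 4.66 and 5.09 CPM, and the 8 stromal markers in these cells summed to 129, 54.8 and 62.0 CPM. Their part was not tested. Of the 11 members measured, 6 stood higher in dEXO (57.9% of genes did). Oasl1 and Cmpk2 stood at least 1.5-fold higher in dEXO (15.6% of 14435 genes) and Ifitm2, Ifitm3 and Mx1 lower (13.7%), with a median of 0.06. Spermatogonia kept Bst2 at 52.4, 65.5 and 54.5 CPM and Trim25 at 29.6, 37.1 and 28.5 CPM, both near 0 in late spermatocytes (2.44, 2.68 and 3.18 CPM and 0.814, 0.657 and 0.864 CPM).

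The other genes of the pathway, 54 in 5 groups, had medians of the log2 ratio of dEXO to PBS of 0.00 over 31 measured in Leydig-like cells and 0.22 over 27 in stromal-like cells, beside 0.45 and 0.58 for the members. In T- or NK-like cells 0 of 24 stood 1.5-fold higher (12.1% of all genes) and 5 lower (6.52%), namely Ifng, Ifnar2, Irf1, Irf8 and Socs3. Of the ligands, 17 genes of type I interferons had 15 UMIs in the 3 libraries together (6, 4 and 5), so their levels could not be compared at this depth. Ifng, the type II interferon, was a T- or NK-like transcript, at 377 CPM in PBS, 339 in EXO and 213 in dEXO (log2 ratio -0.82, -1.04 to -0.61 for dEXO against PBS). The receptor genes Ifnar1 and Ifnar2 were present in every large class, at 42.7, 58.3 and 50.7 CPM and 64.4, 46.2 and 56.5 CPM in stromal-like cells and 18.6, 21.7 and 20.9 CPM and 96.9, 79.3 and 83.5 CPM in Leydig-like cells. Irf8, a factor of myeloid cells, was lower in dEXO macrophages, at 571 CPM in PBS, 519 in EXO and 362 in dEXO (log2 ratio -0.66, -0.94 to -0.39). The 7 dendritic cell markers in macrophages summed to 234, 162 and 113 CPM, in the same order, with 0, 0 and 1 of them at 0, and their part was not tested. Of the restraining genes, Socs3 was lower in dEXO in Leydig-like, stromal-like, macrophage-like and T- or NK-like cells. It differed most in stromal-like cells, at 235 CPM in PBS, 75.5 in EXO and 94.3 in dEXO (log2 ratio -1.32, -1.46 to -1.18). Socs3 was among the leading genes of Leydig-like c16, which held 254 PBS, 178 EXO and 35 dEXO cells. The part of this cluster in the Leydig-like value was not tested. Adar, an RNA editor, was higher in stromal-like cells at 11.8, 20.02 and 20.02 CPM (log2 ratio 0.76, 0.37 to 1.15).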

How the data were processed

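Single-cell suspensions of testis were captured with the 10x Chromium 3' kit (version 3), per the labels' protocols, in 1 library per group. The deposited values are raw UMI counts per gene and cell, made with Cell Ranger 5.0.1 per the file headers, on build GRCm38 per the submitters' processing notes, which also name Seurat. Gene coordinates are those of an annotation in which all 55450 gene IDs matched. The libraries held 97253862 (PBS), 91787154 (EXO) and 96655663 (dEXO) UMIs over 5514, 10228 and 9760 barcodes, where the protocol aimed for 5000 cells.

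Filters left cells of at least 500 UMIs and 300 genes with no more than 20% of UMIs mitochondrial. Scanpy 1.11.5 normalised them and clustered them by Leiden (leidenalg 0.10.2; 2000 variable genes without members or pathway genes, 30 components, 15 neighbours, resolution 1) into 24 clusters, with germ cells clustered again into 19. Clusters were named from markers; the naming rule and the germ clustering were set after the clusters had been seen. Clusters left unnamed (4, and 3 of germ cells) held 7.02%, 9.07% and 15.3% of cells. Counts were summed per library and class. Levels have exact Poisson, shares exact Clopper-Pearson and ratios conditional binomial intervals, computed with scipy 1.17.1 in Python 3.11.15. PCR copies were already merged by UMI.

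With 1 library per group no test was run. Members named for a ratio are, in each of the 6 largest classes, the 4 highest and 4 lowest by the bound nearest to 0; other members named with values were chosen after these were seen. The members and lists were chosen with earlier results of these data known. Summing, ratios and intervals were tested on simulated counts with Poisson spread alone. That simulation cannot show how the intervals hold for counts spread more unevenly over cells. In thinned cells the variance over the mean of the 32 members' UMIs was 4.19 in PBS macrophages and 3.85 in dEXO T- or NK-like cells. In dEXO germ cells it was 0.999. The values of 1 pathway gene are not reported here.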

Additional observations from a re-analysis of the deposited data

Results flagged for a closer look

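Ifit1 stood in opposite directions in 2 cell classes under the same comparison of dEXO with PBS. Its log2 ratio was 1.38 in stromal-like cells and -1.13 in T- or NK-like cells. The difference between the classes was not tested, since each group had 1 library.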

How the results depend on the processing

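No paired analysis was possible because each group had 1 library, and no replicate could be left out. Of 825 values under alternatives, 0 reversed a called value, and 23 of 25 single members kept their sign under all of theirs. The alternatives of single members did not include single clusters. Within clusters some sums changed direction, among them Ifitm3, Ifi27 and Rsad2 in stromal-like cells and Isg20 in Leydig-like cells. Few cells and UMIs limited the macrophage-like class, where 14 or 15 members were measured in each pair. The cause of a move was not tested, except that thinning and higher count minimums measure fewer members. Removal of clusters c20 and c13 was chosen after seeing the data.
Medians of log2 ratios moved as follows. For EXO to PBS they were 0.31 in germ cells weighted equally, 0.46 in Leydig-like c4, 1.14 in macrophages at 200 UMIs per gene, -0.25 in stromal-like c13 and 0.29 in T- or NK-like c21. For dEXO to EXO they were -0.28 in germ cells weighted equally, 0.013 in thinned Leydig-like cells, 0.51 in c4, 0.67 in thinned Sertoli-like cells and 0.060 in stromal-like c6. For dEXO to PBS they were 0.19 in thinned Leydig-like cells, 0.23 in c1, 0.86 in c4, and 0.040 and 0.16 in stromal-like c13 and c6.
Counts of members at least 1.5-fold higher moved as follows. For dEXO to PBS the stromal-like count was 9 at 200 UMIs per gene, 7 thinned and 7 scaled by the median gene; the Leydig-like count was 3 thinned; the macrophage count was 14 at 20 UMIs per gene, 2 at 200 and 3 thinned. The T- or NK-like count was 5 at 20 UMIs per gene, 0 at 200, 0 thinned, 0 at 1000 UMIs per cell, and 1 with all variable genes, median-gene scaling or top-scoring doublets removed. For dEXO to EXO the Leydig-like count was 1 thinned, the stromal-like 4 at 200 UMIs per gene and 5 thinned, the macrophage 14 at 20, 1 at 200, 2 thinned and 5 with each library clustered alone, and the T- or NK-like 6 at 20, 1 at 200 and 1 thinned. For EXO to PBS the stromal-like count was 4 with all variable genes, at 1000 UMIs per cell, with each library alone or with doublets removed, 5 at 20 UMIs per gene or at most 10% mitochondrial UMIs, and 1 at 200 or by median-gene scaling. The Leydig-like count was 5 with each library alone, the macrophage 5 at 20 UMIs per gene, and the T- or NK-like 1 at 20 or thinned.
Counts at least 1.5-fold lower moved too. For dEXO to PBS the T- or NK-like count was 4 with all variable genes, at 20 UMIs per gene or with doublets removed, and 1 at 200 or thinned. For dEXO to EXO it was 2 at 20 UMIs per gene and 1 with all variable genes, at 1000 UMIs per cell, with each library alone or with doublets removed; the Leydig-like count was 1 thinned and the macrophage 1 with doublets removed. For EXO to PBS the T- or NK-like count was 3 at 1000 UMIs per cell, at most 10% mitochondrial UMIs, thinned or with each library alone, and 2 at 200 UMIs per gene. The Leydig-like count was 1 with all variable genes or median-gene scaling and 2 with doublets removed; the macrophage 5 at 20 UMIs per gene and 0 at 200, thinned or with doublets removed; the stromal-like 1 thinned, with each library alone or without c13, and 2 by median-gene scaling.
Shares of cells with a UMI of the 32 members (PBS, EXO, dEXO) without thinning were 55.6%, 45.2% and 47.3% in germ, 97.4%, 93.2% and 93.9% in Leydig-like, 86.1%, 81.4% and 89.5% in macrophage-like, 75.7%, 64.4% and 67.4% in stromal-like and 92.2%, 78.1% and 73.6% in T- or NK-like cells. At 2000 UMIs they were 19.1%, 18.6% and 19.98%, 43.2%, 46.6% and 52.5%, 66.0%, 72.5% and 87.0%, 53.7%, 61.2% and 66.9%, and 75.6%, 69.6% and 64.9% in the same order of classes.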

Other observations

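Cells of the 4 clusters left unnamed also held member transcripts, with all 37 members at 1642, 1814 and 2198 CPM in PBS, EXO and dEXO in c7, whose leading genes include those of globins and immunoglobulins. Clusters c17 (with markers of Leydig cells and macrophages) and c18 (with markers of Leydig and T cells) gave 2182, 2091 and 2502 CPM and 2316, 2155 and 2393 CPM. Cluster c19, with a high doublet score, gave 2195, 2064 and 2446 CPM. Each of these sums was highest in dEXO. The 32 members other than Ifitm1, Ifitm2, Ifitm3, Bst2 and Ifi27 were not summed alone in these clusters.

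Of the type III interferons, Ifnl3 had 158, 163 and 84 UMIs in Leydig-like cells, or 2.38 CPM in PBS, 3.80 in EXO and 2.81 in dEXO, and Ifnl2 was at 1.19, 1.77 and 1.14 CPM there. These are near-identical copies, so how their counts divide is uncertain. Their receptor gene Ifnlr1 stood at 0.0452, 0.0933 and 0.134 CPM in the same cells.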
